A study of Homo sapiens with 8 samples.

Results

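The 9 genes described here encode the ligands that direct blood and lymph vessel growth, VEGFA, VEGFB, VEGFC, PGF, ANGPT1, ANGPT2 and ANGPT4, together with the VEGF co-receptors NRP1 and NRP2. They were chosen by gene symbol from the 60658 genes of the table. RNA sequencing compared human iPSC-derived cardiomyocytes (hiPS-CMs) of the H/R+BA group (4 libraries) with those of the H/R group (4 libraries). In both groups the cells were kept for 12 h at 1% O2 in low-glucose (0.3 g/L) DMEM without serum, followed by 12 h of reoxygenation. During reoxygenation the H/R+BA cells received medium conditioned by brown adipocyte (BA) sheets and the H/R cells received regular medium with serum. The question put to these libraries was what the BA sheets' medium changes in the transcripts of injured cardiomyocytes. The cells come from a single iPSC line, which the sample labels call 235G1 and the paper spells with the digits in another order. It was grown on mouse feeder cells and turned into cardiomyocytes with a mixture of factors that included VEGF. The sheets that conditioned the medium were built from rat cells. Untreated cells were not analysed here, and all values set H/R+BA against H/R.

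VEGF ligands act through tyrosine kinase receptors, VEGFA through FLT1 and KDR, VEGFB and PGF through FLT1, and VEGFC mainly through FLT4, with neuropilins as co-receptors that strengthen binding. Angiopoietins act through the receptor TEK (TIE2), where ANGPT1 is the steady activator that keeps vessels stable and ANGPT2 is a context-dependent ligand that can oppose it. In the heart, cardiomyocytes are a source of VEGFA and VEGFB for the capillaries around them, and VEGFA is a textbook target of the hypoxia-inducible factors. Of the 9 genes, PGF, ANGPT1, ANGPT2, VEGFA and VEGFC were higher in H/R+BA cells, the result for VEGFC being the least stable. VEGFB, NRP1 and NRP2 did not pass the test, and ANGPT4 was too low to be tested. The largest differences were those of ANGPT1, 5.27-fold by the ratio of group means, PGF (2.74-fold) and ANGPT2 (2.19-fold), whereas VEGFA and VEGFC differed by 1.35-fold and 1.42-fold.

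Levels are given as FPKM, fragment numbers divided by transcript length and library depth, which the authors scaled between libraries. Differences were tested on log2(FPKM + 1), where the change of a gene at low FPKM appears smaller than it is. With limma and Benjamini-Hochberg adjustment, 14334 genes were tested, those that reached 1 FPKM in no fewer than 4 libraries, and a gene was called at an adjusted p under 0.05. Libraries held 48100296 to 53308952 reads in the H/R+BA group and 39854257 to 48898147 in the H/R group, with 95.4% to 96.3% of reads mapped. The labels give each library a number but do not say that libraries came from separate cultures, so p-values reflect how the 8 libraries vary, which may be technical. The labelled cell type was checked with 16 cardiomyocyte markers, all of which were tested, with a summed level of 17700 to 21845 FPKM in H/R+BA libraries and 15673 to 24373 FPKM in H/R libraries. In bulk RNA, fewer cells of a type and less RNA per cell cannot be told apart.

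Promoter sequences are shown for 4 ligand genes to set the letters of the hypoxia response element, the site through which hypoxia-inducible factors act, beside the levels of each gene. Each run is the 250 bases before a RefSeq transcript start, 5′ to 3′ on the gene's strand (GRCh38.p14), with matches to the element's core in capitals. The core was searched as ACGTG or GCGTG on both strands, so a match on the other strand reads CACGT or CACGC, and it overlaps the E-box CACGTG. The windows lie at chr14:74955765-74956014 (minus strand) for PGF, chr4:176792923-176793172 (minus strand) for VEGFC, chr11:64234334-64234583 (plus strand) for VEGFB and chr20:916335-916584 (minus strand) for ANGPT4.
PGF: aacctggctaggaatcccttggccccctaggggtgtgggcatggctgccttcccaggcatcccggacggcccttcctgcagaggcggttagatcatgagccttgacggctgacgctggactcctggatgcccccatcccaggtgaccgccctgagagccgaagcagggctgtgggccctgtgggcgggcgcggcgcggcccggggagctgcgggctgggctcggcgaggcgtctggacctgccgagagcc
VEGFC: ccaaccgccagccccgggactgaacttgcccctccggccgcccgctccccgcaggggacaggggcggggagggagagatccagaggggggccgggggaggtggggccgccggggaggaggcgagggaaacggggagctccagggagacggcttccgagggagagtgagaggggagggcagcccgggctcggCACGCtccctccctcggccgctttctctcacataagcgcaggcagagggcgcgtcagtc
VEGFB: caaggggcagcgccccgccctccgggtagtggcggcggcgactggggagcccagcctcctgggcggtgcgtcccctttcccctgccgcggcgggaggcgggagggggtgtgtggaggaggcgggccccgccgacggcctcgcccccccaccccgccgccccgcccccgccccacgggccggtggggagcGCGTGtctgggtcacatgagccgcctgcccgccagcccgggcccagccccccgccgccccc
ANGPT4: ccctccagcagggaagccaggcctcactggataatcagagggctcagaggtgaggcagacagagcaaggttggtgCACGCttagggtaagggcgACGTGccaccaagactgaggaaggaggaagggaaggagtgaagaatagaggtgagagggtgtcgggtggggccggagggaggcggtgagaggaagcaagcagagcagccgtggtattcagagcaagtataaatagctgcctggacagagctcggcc
The PGF window shown, that of the first of its 2 starts in the table, held no match to the core, whereas the window of the other start, which overlaps it, held 1 match at 162 bases before that start and 3 GC boxes. VEGFC held 1 match, 59 bases before the start, and VEGFB held 1 match, 61 bases before the start. ANGPT4, the gene with the lowest level, held 2 matches and was alone among these 4 windows in holding a TATA box (TATAAA). The core is common, since 43.2% of 35116 promoter windows of this length held it, against 42.6% for the GC box (GGGCGG) and 10.7% for TATAAA. The GC box, searched on both strands, was matched 6 times in VEGFB, 2 times each in VEGFC and the PGF window shown and not in ANGPT4. GC content was 82.8% for VEGFB, 74.0% for VEGFC, 70.8% for PGF (first window) and 59.2% for ANGPT4, with a median of 58.0% over all windows. Windows were used for 5 of the 9 genes, NRP2 being the other one. No window was used for VEGFA or NRP1, so their promoters were not examined. Entries on the chromosome that carries ANGPT1 and ANGPT2 were left out, so the promoters of these genes were not examined. A match is a description of the letters and shows no binding.

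The VEGF ligands were led by VEGFA, the main inducer of blood vessel sprouting. It measured 156, 173, 151 and 165 FPKM in H/R+BA libraries 1 to 4, and 113, 136, 104 and 127 FPKM in H/R libraries 1 to 4. Every H/R+BA library was above every H/R library, with H/R+BA library 3 and H/R library 2 nearest to each other. The group means were 161 ± 9.49 FPKM in H/R+BA and 120 ± 14.3 FPKM in H/R (SD, n = 4 each), a difference of 0.43 on the log2(FPKM + 1) scale (standard error 0.08, 95% interval 0.24 to 0.62, adjusted p = 0.00620). VEGFA was already abundant, with a mean level above that of 95.9% of the genes tested. The deposited normalized counts, which are not divided by transcript length, gave VEGFA a larger difference of 0.54. Its normalized count per FPKM was 90.6 to 94.4 in H/R+BA libraries and 83.8 to 88.5 in H/R libraries. This quotient did not overlap between the groups, and its log2 difference of 0.10 was above that of 95.6% of the genes with at least 1 FPKM in all libraries. The table gives VEGFA as 1 gene, and its transcript isoforms were not analysed here.

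An antisense transcript overlaps VEGFA. RP1-261G23.7, a long noncoding RNA gene of 188 bases on the opposite strand, measured 101 ± 15.3 FPKM in H/R+BA libraries and 59.1 ± 17.8 FPKM in H/R libraries (log2 difference 0.79, adjusted p = 0.0135). It held 146 to 243 normalized counts in H/R+BA libraries and 64.8 to 140 in H/R libraries, against 14305 to 15668 and 9184 to 11924 for VEGFA. The library kit marks strand, but the strand setting of the counting was not given in the methods or labels, so reads of the pair may have been exchanged. VEGFA held far more counts than the antisense gene in every library. The high FPKM of the antisense gene came from few counts over 188 bases and should not be compared with that of VEGFA.

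PGF, placental growth factor, is a FLT1 ligand that is scarce in resting tissue and known to rise in injury. It measured 14.05, 14.8, 17.6 and 14.6 FPKM in H/R+BA libraries and 5.93, 6.11, 4.07 and 6.18 FPKM in H/R libraries. The lowest H/R+BA library held more than 2 times the level of the highest H/R library, and the groups stood far apart. Means were 15.3 ± 1.59 FPKM in H/R+BA and 5.57 ± 1.01 FPKM in H/R (SD, n = 4 each), with a log2 difference of 1.32 (standard error 0.12, 95% interval 1.04 to 1.59, adjusted p = 2.68e-04). Among the 14334 genes tested this was the 26th largest increase. H/R library 3 held the lowest level of its group, and without it the difference was 1.196.

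VEGFC, the lymphatic growth factor, was low in both groups. It measured 2.78, 2.48, 2.53 and 3.20 FPKM in H/R+BA libraries and 1.79, 1.598, 2.28 and 2.07 FPKM in H/R libraries. The groups did not overlap, but the gap between the lowest H/R+BA library and the highest H/R library was small beside the spread within each group. Means were 2.75 ± 0.331 and 1.94 ± 0.303 FPKM in H/R+BA and H/R (SD, n = 4 each), with a log2 difference of 0.35 (standard error 0.10, 95% interval 0.12 to 0.59, adjusted p = 0.0338). This call was the least stable of the 5. It was lost without H/R+BA library 1 (adjusted p = 0.0773), 2 (0.0509), 3 (0.0540) or 4 (0.0901) and without H/R library 1 (0.0777) or 2 (0.0695), and it was kept without H/R library 3 or 4. It rested on 191 to 246 normalized counts in H/R+BA libraries and 120 to 177 in H/R libraries.

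VEGFB, the FLT1 ligand that the heart expresses strongly, measured 87.7, 89.1, 75.9 and 75.7 FPKM in H/R+BA libraries and 75.2, 62.3, 76.2 and 65.7 FPKM in H/R libraries. H/R library 3 lay above H/R+BA libraries 3 and 4, so the groups overlapped. The means of 82.1 ± 7.29 FPKM in H/R+BA and 69.8 ± 6.93 FPKM in H/R (SD, n = 4 each) gave a log2 difference of 0.23 (95% interval 0.04 to 0.42) that did not pass after adjustment (adjusted p = 0.0727). No alternative setting called VEGFB, with adjusted p-values of 0.0509 to 0.181 over the 15 tried.

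The summed level of the VEGF ligands VEGFA, VEGFB, VEGFC and PGF was 248 to 279 FPKM in H/R+BA libraries (mean 261 ± 13.2) and 186 to 206 FPKM in H/R libraries (mean 197 ± 8.33, SD, n = 4 each). The make-up of this sum was compared within each library, where scaling between libraries has no part. PGF supplied 5.30% to 7.10% of the sum in H/R+BA libraries and 2.19% to 3.07% in H/R libraries, without overlap. The VEGFA share overlapped between the groups, at 59.9% to 63.8% in H/R+BA libraries and 55.7% to 66.0% in H/R libraries. VEGFB supplied 29.3% to 33.7% in H/R+BA libraries and 30.3% to 40.9% in H/R libraries, and VEGFC supplied about 1% in either group (0.887% to 1.24% and 0.777% to 1.23%). Thus PGF was the ligand whose share separated the groups, while VEGFA remained the larger part of the pool in every library. These shares were given no test.

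**Figure D1:**
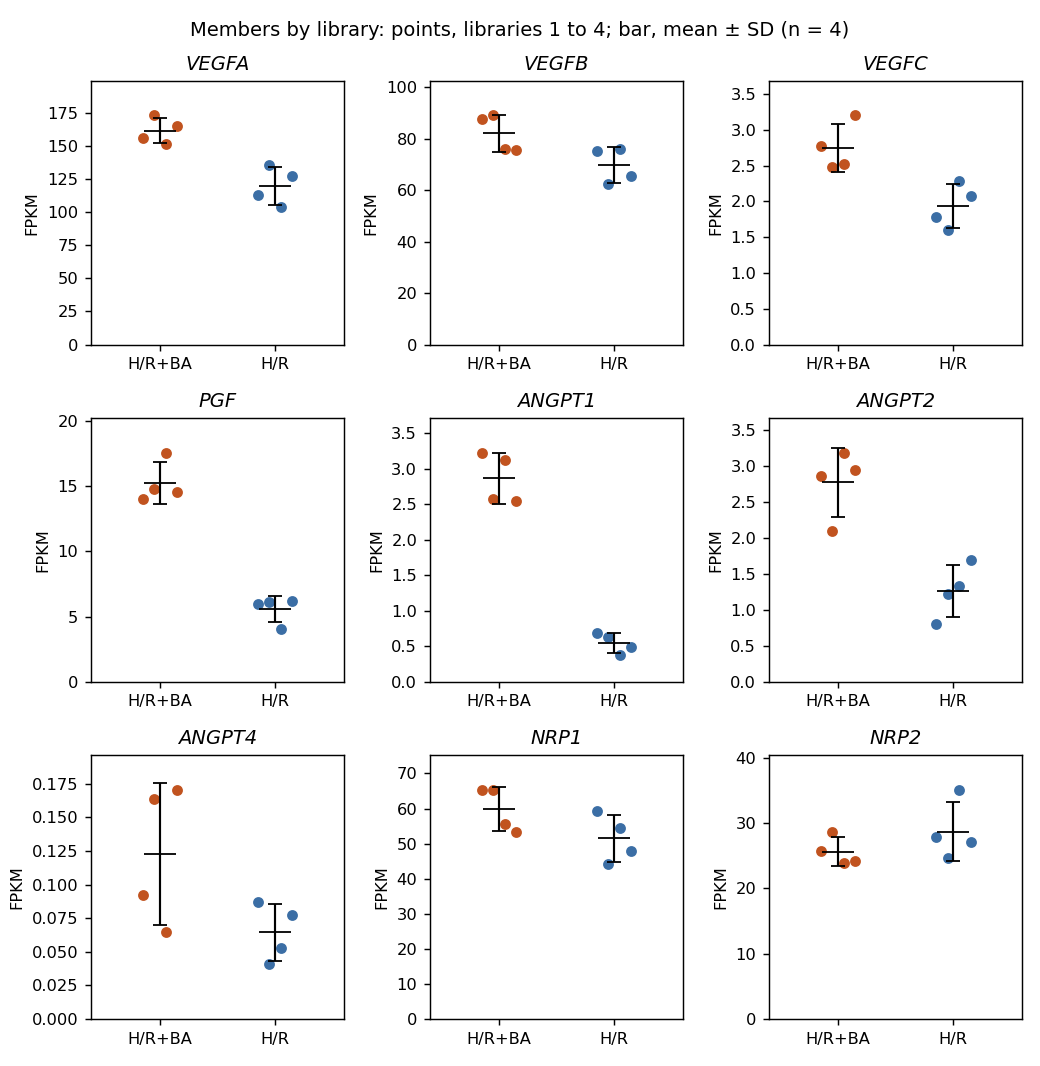
Level in FPKM (y axis, from 0 in each panel) of the 9 genes in H/R+BA libraries (orange) and H/R libraries (blue). Points are libraries 1 to 4 from left to right and bars are mean ± SD (n = 4). The groups do not overlap for VEGFA, VEGFC, PGF, ANGPT1 and ANGPT2, and they overlap for VEGFB, ANGPT4, NRP1 and NRP2.

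ANGPT1, the activating ligand of TEK, had the largest fold difference of the 9 genes. It measured 3.23, 2.57, 3.12 and 2.54 FPKM in H/R+BA libraries and 0.683, 0.624, 0.373 and 0.493 FPKM in H/R libraries. Every H/R+BA library was above 1 FPKM and every H/R library below it. Because ANGPT1 passed the filter through the H/R+BA group alone, a difference in this direction was built into its being tested. Means were 2.87 ± 0.359 FPKM in H/R+BA and 0.543 ± 0.139 FPKM in H/R (SD, n = 4 each). The log2 difference was 1.32 (standard error 0.11, 95% interval 1.09 to 1.56, adjusted p = 1.98e-04), the 24th largest of all genes tested. With a pseudocount of 0.1 it was 2.22, and on the deposited normalized counts (211 to 312 in H/R+BA libraries, 41.5 to 61.3 in H/R libraries) it was 2.39. All 15 alternative settings called ANGPT1.

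ANGPT2, the context-dependent TEK ligand made chiefly by endothelial cells, measured 2.86, 2.09, 3.19 and 2.95 FPKM in H/R+BA libraries and 0.806, 1.22, 1.34 and 1.69 FPKM in H/R libraries. The groups did not overlap, with H/R+BA library 2 and H/R library 4 nearest to each other. Means were 2.77 ± 0.473 FPKM in H/R+BA and 1.26 ± 0.364 FPKM in H/R (SD, n = 4 each), a log2 difference of 0.74 (standard error 0.14, 95% interval 0.43 to 1.05, adjusted p = 0.00532). With a pseudocount of 0.1 the difference was 1.10, and on normalized counts it was 1.08. ANGPT2 lies opposite to MCPH1, a gene of chromosome condensation, which measured 8.36 ± 0.404 FPKM in H/R+BA libraries and 6.64 ± 0.624 FPKM in H/R libraries (log2 difference 0.30, adjusted p = 0.0197). MCPH1 held 627 to 731 normalized counts in H/R+BA libraries and 506 to 558 in H/R libraries. ANGPT2 held fewer, 238 to 310 in H/R+BA libraries and 93.5 to 181 in H/R libraries. The exchange of reads between ANGPT2 and MCPH1 was not tested.

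ANGPT4, the third human angiopoietin, was listed at 0.0920, 0.163, 0.0644 and 0.171 FPKM in H/R+BA libraries and 0.0866, 0.0410, 0.0531 and 0.0776 FPKM in H/R libraries. H/R+BA libraries 1, 2 and 4 were above all H/R libraries, while H/R+BA library 3 lay within their range. At 11.9 to 31.5 normalized counts in H/R+BA libraries and 7.55 to 15.9 in H/R libraries, ANGPT4 stayed under the filter. When no filter was applied, its difference of 0.08 was not called (adjusted p = 0.277), on a scale where the ratio of means of 1.90 at such levels becomes small.

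The ratio of ANGPT1 to ANGPT2 was taken within each library. It was 1.13, 1.23, 0.980 and 0.864 in H/R+BA libraries and 0.848, 0.511, 0.279 and 0.292 in H/R libraries. Both angiopoietins were at about the same level in H/R+BA cells, whereas ANGPT1 was the lower of the pair in every H/R library. H/R+BA library 4 and H/R library 1 nearly met. The mean ratio was 1.05 ± 0.161 in H/R+BA and 0.482 ± 0.266 in H/R (SD, n = 4 each), given without a test.

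The neuropilins did not pass the test. NRP1, the co-receptor for VEGFA and class 3 semaphorins, measured 65.4, 65.3, 55.6 and 53.2 FPKM in H/R+BA libraries and 59.3, 44.1, 54.5 and 47.9 FPKM in H/R libraries. The ranges overlapped. The log2 difference was 0.22 (95% interval -0.01 to 0.45, adjusted p = 0.148). NRP2, the co-receptor for VEGFC, measured 25.7, 28.6, 23.8 and 24.2 FPKM in H/R+BA libraries and 27.8, 24.7, 35.1 and 27.2 FPKM in H/R libraries, with its highest value in H/R library 3. Its log2 difference was -0.15 (95% interval -0.38 to 0.08, adjusted p = 0.313). The intervals leave room for modest changes of either gene, and no alternative setting called them.

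Although neither neuropilin was called, their ratio separated the groups. NRP1 over NRP2 was 2.54, 2.28, 2.34 and 2.197 in H/R+BA libraries and 2.13, 1.79, 1.55 and 1.76 in H/R libraries. The lowest H/R+BA library was just above the highest H/R library. The mean ratio was 2.34 ± 0.146 in H/R+BA and 1.81 ± 0.240 in H/R (SD, n = 4 each). This ratio was likewise given no test.

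**Figure D2:**
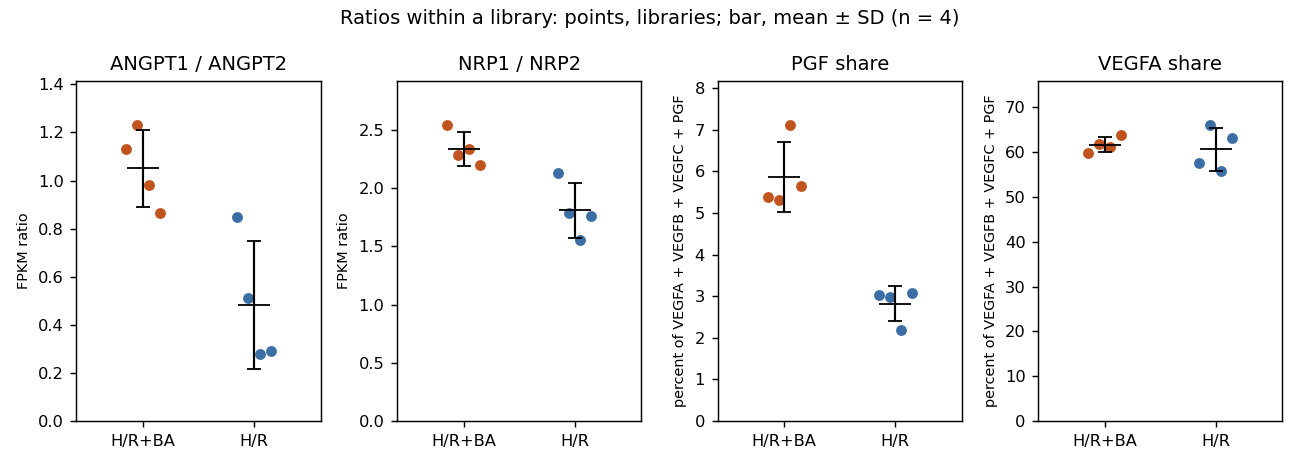
Ratios and shares formed within a library (y axes, from 0), for H/R+BA libraries (orange, left) and H/R libraries (blue, right). Points are libraries and bars are mean ± SD (n = 4). ANGPT1 over ANGPT2, NRP1 over NRP2 and the PGF share of the VEGF ligand sum do not overlap between the groups, whereas the VEGFA share does.

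Counted together, 8 of the 9 genes were tested, and 5 were called, all of them higher in H/R+BA. Over all 14334 genes, 24.7% were called, 13.7% as higher and 11.1% as lower. The median log2 difference of the 8 genes was 0.39, against 0.01 over all genes tested. The same 5 genes did not overlap between the groups, all in the higher direction, where 28.6% of all genes tested did not overlap and 15.3% did so as higher. These counts describe a short list that includes ANGPT1, which was tested only through its level in H/R+BA cells. The list also includes VEGFC, whose call was lost in 8 of 15 alternative settings.

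The order of levels was close to the same in both groups. In H/R+BA cells VEGFA was highest, followed by VEGFB, NRP1, NRP2 and PGF, each with a range over libraries that did not meet the next. ANGPT1, ANGPT2 and VEGFC came after them at 2.87, 2.77 and 2.75 FPKM, with ranges that overlapped, and ANGPT4 was last. In H/R cells the first 5 places were the same, with VEGFC and ANGPT2 overlapping in the next places and ANGPT1 below both. The change of place was therefore that of ANGPT1, which stood below ANGPT2 and VEGFC in H/R cells and level with them in H/R+BA cells.

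The genes most like each called member were sought among protein-coding genes by the root mean square difference of their log2(FPKM + 1) values over the 8 libraries, each gene centred on its own mean. For VEGFA they were ACSS3 (0.0366), FBL (0.0452) and RPE (0.0490). For PGF they were SLC38A5 (0.147), LIN28A (0.150) and CDC42EP5 (0.152), and for ANGPT1 they were CDC42EP5 (0.122), SEMA6B (0.146) and RASL12 (0.151). CDC42EP5 was thus near both, at 19.8 ± 1.54 FPKM in H/R+BA libraries and 7.58 ± 1.22 FPKM in H/R libraries (SD, n = 4 each). For ANGPT2 they were RHOJ (0.107), DTL (0.121) and NOSTRIN (0.134), and for VEGFC they were PFKFB2 (0.0719), VAMP4 (0.0756) and HOXB3 (0.0765). The measure is mainly one of the group difference, which these 8 libraries share.

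The receptor list held FLT1, KDR, FLT4, TEK and TIE1, together with PTPRB, HSPG2, MCAM and integrin subunits. Of its 12 genes 11 were tested, of which 4 were higher and 1 was lower in H/R+BA cells. The median log2 difference was 0.26, beside 13.7% higher, 11.1% lower and a median of 0.01 over all genes tested. Of FLT1, KDR, TEK and TIE1 only TEK and TIE1 were called. The angiopoietin receptor TEK measured 1.54 ± 0.106 FPKM in H/R+BA libraries and 0.845 ± 0.106 FPKM in H/R libraries (log2 difference 0.46, adjusted p = 0.00518), and like ANGPT1 it reached 1 FPKM in H/R+BA libraries alone, so that its direction too was built into its being tested. Its partner TIE1 measured 1.89 ± 0.256 and 1.04 ± 0.282 FPKM in H/R+BA and H/R (0.51, adjusted p = 0.0143). PTPRB, the phosphatase that restrains TEK, was not called (0.26, adjusted p = 0.0637).

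The VEGF receptors were less clear. KDR, the main signalling receptor for VEGFA, averaged 19.2 ± 2.65 FPKM in H/R+BA and 13.5 ± 3.34 FPKM in H/R, which did not pass (0.50, adjusted p = 0.0600). FLT1, the receptor for PGF and VEGFB, averaged 8.44 ± 1.12 and 8.02 ± 1.31 FPKM in H/R+BA and H/R (0.07, 95% interval -0.20 to 0.34, adjusted p = 0.718). FLT4, the VEGFC receptor, was under the filter at means of 0.597 FPKM in H/R+BA and 0.275 FPKM in H/R. Hence PGF was higher without a called difference in its receptor.

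Of the adhesion receptors that bind these ligands or their receptors, ITGA5, the fibronectin receptor subunit, averaged 120 ± 5.25 FPKM in H/R+BA and 88.3 ± 4.88 FPKM in H/R (0.43, adjusted p = 9.18e-04). ITGAV, the vitronectin receptor subunit, fell by 0.65 on the same scale, at 170 ± 8.29 FPKM in H/R+BA and 269 ± 31.4 FPKM in H/R (adjusted p = 7.75e-04). MCAM, a KDR co-receptor, was called (0.33, adjusted p = 0.0384), but the call was lost without any single library other than H/R library 1 or 3 (adjusted p = 0.0521 to 0.0961 over the 6). ITGB1 (-0.19, adjusted p = 0.115), HSPG2 (-0.06, 0.770) and ITGA9 (-0.02, 0.909) were not called. The 2 called integrin subunits thus moved in opposite directions.

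**Figure D3:**
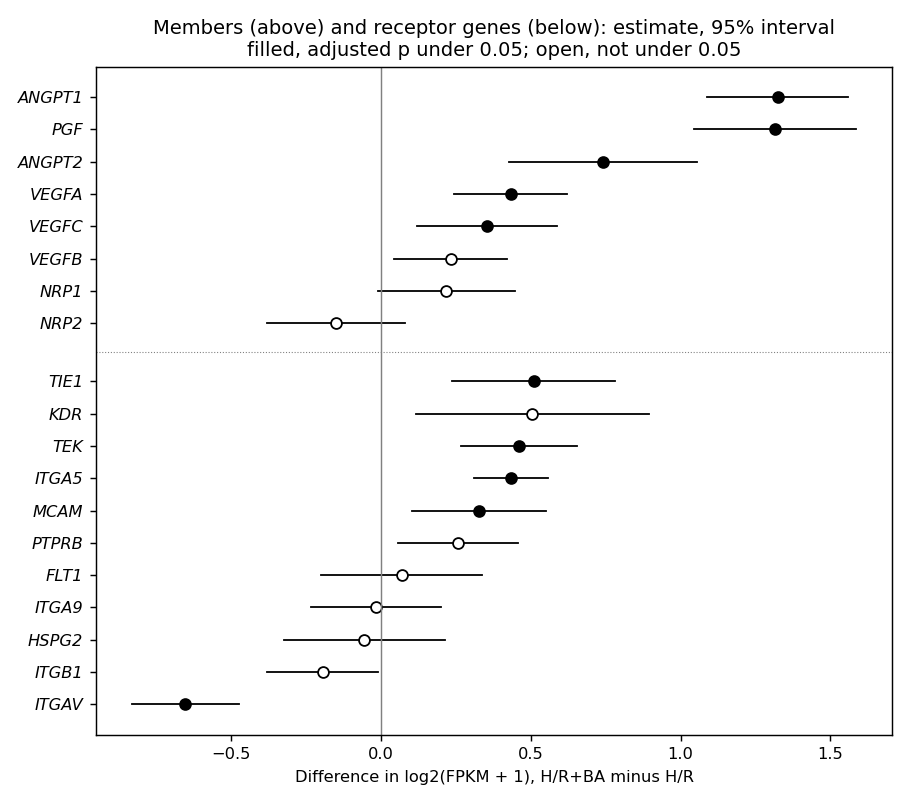
Difference in log2(FPKM + 1), H/R+BA minus H/R (x axis), with 95% intervals, for the 8 tested ligand and neuropilin genes (above the dotted line) and the 11 tested genes of the receptor list (below it). Filled points have an adjusted p under 0.05. ANGPT1 and PGF lie farthest to the right at 1.32, and ITGAV farthest to the left at -0.65.

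Proteins that bind, cleave or process the ligands moved in both directions, with 3 of 25 tested genes higher and 8 lower (median -0.10), beside 13.7% and 11.1% of all genes. ADAMTS1, a secreted protease that binds VEGFA and limits its action, averaged 19.01 ± 2.17 FPKM in H/R+BA and 7.24 ± 1.36 FPKM in H/R (1.29, adjusted p = 3.25e-04). CTGF, a matrix protein that can bind VEGFA, fell by 0.63 to 231 ± 14.9 FPKM in H/R+BA, against 361 ± 37.9 FPKM in H/R (adjusted p = 0.00104). SEMA3C, a semaphorin that competes for the neuropilins, fell by 0.78 to 12.7 ± 1.41 FPKM in H/R+BA, against 22.6 ± 2.81 FPKM in H/R (adjusted p = 9.83e-04). The other two genes called higher were the semaphorins SEMA3A (0.91) and SEMA3F (0.51), so the class 3 semaphorins did not move as one. ADAMTS3, the protease that processes VEGFC, fell by 0.53 (adjusted p = 0.00476), whereas VEGFC itself was higher.

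The neighbouring families were small lists, to be read beside the 24.7% of all genes called. Of 10 plexins and other proteins that act with neuropilins, 1 was called, PLXNA1, which fell by 0.24 (adjusted p = 0.0136), and this count was 4 on normalized counts and 2 without H/R library 1 or 2. Of 7 tested genes of the PDGF branch, PDGFD was called higher (0.27, adjusted p = 0.0314) and PDGFC lower (-0.54, adjusted p = 0.0404). The PDGF branch count was 0 without H/R+BA library 1 or 2 or H/R library 1 or 2, 1 without H/R+BA library 3 or 4 or H/R library 4, and 4 without H/R library 3. FIGF, which encodes the remaining VEGF ligand VEGFD, was under the filter at means of 0.153 FPKM in H/R+BA and 0.147 FPKM in H/R. Of 8 angiopoietin-like genes, the 2 that were tested were both higher, ANGPTL2 at 0.73 (adjusted p = 9.64e-04) and ANGPTL4, an inhibitor of lipoprotein lipase, at 0.61 (adjusted p = 0.0163, or 0.0504 without H/R+BA library 2).

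Genes known to rise in hypoxia, VEGFA left out, were higher in 12 of 23 cases and not called in 11, with a median log2 difference of 0.31, beside 13.7% of all genes called higher. EGLN3, an oxygen-sensing prolyl hydroxylase, averaged 146 ± 13.01 FPKM in H/R+BA and 99.2 ± 5.45 FPKM in H/R (0.55, adjusted p = 9.32e-04). LDHA, the glycolytic lactate dehydrogenase, had a difference of 0.37 (adjusted p = 0.00443) and P4HA1, a collagen prolyl hydroxylase, one of 0.36 (adjusted p = 0.00497). These 3 genes, named for the smallest p-values of the list, had differences of about the size of VEGFA's 0.43. Over the whole list the differences ran from -0.18 (BNIP3L, not called) to 0.85 (DDIT4, called). When each library was left out in turn, the count of called genes in this list was 8 to 13.

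Of the known regulators of VEGFA 3 of 20 were higher and 3 lower, shares near the 13.7% and 11.1% of all genes. EGR1, an immediate early transcription factor, fell by 1.32 to 5.14 ± 0.187 FPKM in H/R+BA, against 14.4 ± 1.46 FPKM in H/R (adjusted p = 4.57e-05). HIF3A, an inhibitory member of the hypoxia-inducible factors, was higher (0.96, adjusted p = 0.00580), as were EGLN3 and the nuclear receptor ESRRA (0.21). HIF1AN (-0.23) and HNRNPL (-0.16) were the other two called lower. The transcript of HIF1A itself, which is controlled mainly at the protein level, did not differ by the test (-0.05, adjusted p = 0.816). The calls of ESRRA (lost without H/R+BA library 1, adjusted p = 0.0541), HIF1AN (lost without 6 of the libraries, up to 0.0744) and HNRNPL (lost without 6, up to 0.0817) were the weaker ones, and without H/R+BA library 1 the count was 3 in place of 6. Of 8 transcription factors known to act on angiopoietin genes, 1 was called, FOXC2, which fell by 0.39 (adjusted p = 0.0282), a call lost without any single library other than H/R library 2 or H/R+BA library 1 (0.0507 to 0.0776 over the 6).

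Below KDR, 7 of 34 tested signal proteins were higher and 3 lower (median 0.08), beside 13.7% and 11.1% of all genes tested. In either direction 29.4% of them were called, against 24.7% of all genes. With each library left out in turn, 7 to 10 of these signal proteins were called. RAC2, a small GTPase best known from blood cells, averaged 49.99 ± 1.44 FPKM in H/R+BA and 23.8 ± 1.197 FPKM in H/R (1.04, adjusted p = 4.57e-05). SH2D2A, an adaptor that binds KDR, had a difference of 1.06 (adjusted p = 0.00124). PIK3CA, a catalytic subunit of PI3K, fell by 0.62 (adjusted p = 0.00561). Among genes known to rise in endothelial cells after VEGF, 5 of 13 were higher and 2 lower (median 0.29), beside 13.7% and 11.1% of all genes. PLVAP, 1 of the 5, reached 1 FPKM in H/R+BA libraries alone, so its direction was built into its being tested. APLN, a peptide of sprouting vessel tips, averaged 7.04 ± 0.803 FPKM in H/R+BA and 3.15 ± 0.331 FPKM in H/R (0.95, adjusted p = 3.79e-04), whereas RCAN1, an inhibitor of calcineurin, fell by 0.69 (adjusted p = 0.00384) and ESM1, a secreted proteoglycan, fell by 0.57 (adjusted p = 0.0432, or up to 0.108 without 6 of the libraries).

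Markers of other cell types were set beside the ligands, because TEK, KDR and ANGPT2 are themselves endothelial genes. Of 20 endothelial markers 14 were tested, of which 9 were higher and 5 not called, with a median of 0.50, beside 13.7% higher and a median of 0.01 over all genes. TEK and PLVAP, 2 of the 9, reached 1 FPKM in H/R+BA libraries alone. MMRN2 (1.00), ENG (0.90) and PECAM1 (0.95) had the smallest p-values. The summed level of the endothelial markers was 172 to 201 FPKM in H/R+BA libraries and 116 to 126 FPKM in H/R libraries, a ratio of means of 1.49. The markers VWF (0.0767 FPKM in H/R+BA and 0.0429 FPKM in H/R) and CLDN5 (0.0352 FPKM in H/R+BA and 0.0252 FPKM in H/R) were near 0 in both groups. CDH5, also 1 of the 9 called higher, averaged 7.07 FPKM in H/R+BA and 3.41 FPKM in H/R. The part of endothelial transcripts in the differences of ANGPT2, ANGPT1, PGF, VEGFA and VEGFC was not tested.

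Mural cells, pericytes and smooth muscle, are known sources of ANGPT1. Of 12 mural markers 10 were tested, with NOTCH3 (0.73), RGS5 (0.70) and KCNJ8 (0.64) higher and MYH11 lower (-0.38). This count and those of the lists that follow stand beside 13.7% higher and 11.1% lower over all genes tested. KCNJ8 was not called without H/R+BA library 1 (adjusted p = 0.0542), nor MYH11 without H/R+BA library 2, 3 or 4 or H/R library 1 or 3 (up to 0.0841), and MYH11 reached 1 FPKM in H/R libraries alone. For the whole mural list, the summed level was 1892 to 2158 FPKM in H/R+BA libraries and 1953 to 2787 FPKM in H/R libraries. Fibroblast markers summed to 684 to 893 FPKM in H/R+BA libraries and 482 to 764 FPKM in H/R libraries, with POSTN and DCN called higher among 7 tested. Both calls were lost without H/R+BA library 1, 2 or 4 or H/R library 1 (adjusted p up to 0.0636 for POSTN and 0.121 for DCN) and that of DCN also without H/R library 2, whereas 5 fibroblast markers were called without H/R library 3. Of 8 leukocyte markers 3 were tested, CD68 and CSF1R were higher (CSF1R not without H/R+BA library 1, adjusted p = 0.0510), the sums were 14.99 to 21.2 FPKM in H/R+BA libraries and 5.64 to 14.6 FPKM in H/R libraries, and PTPRC was listed at 0 in H/R+BA. Of 16 cardiomyocyte markers 1 was called, TNNI3 (0.46, adjusted p = 0.0229), and it was not called without H/R+BA library 1 or 2 (up to 0.0639). None of 7 adipocyte markers reached the filter, with sums of 1.85 to 2.23 FPKM in H/R+BA libraries and 0.782 to 1.34 FPKM in H/R libraries. The part of these cell types in the differences of the ligands was not tested either.

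**Figure D4:**
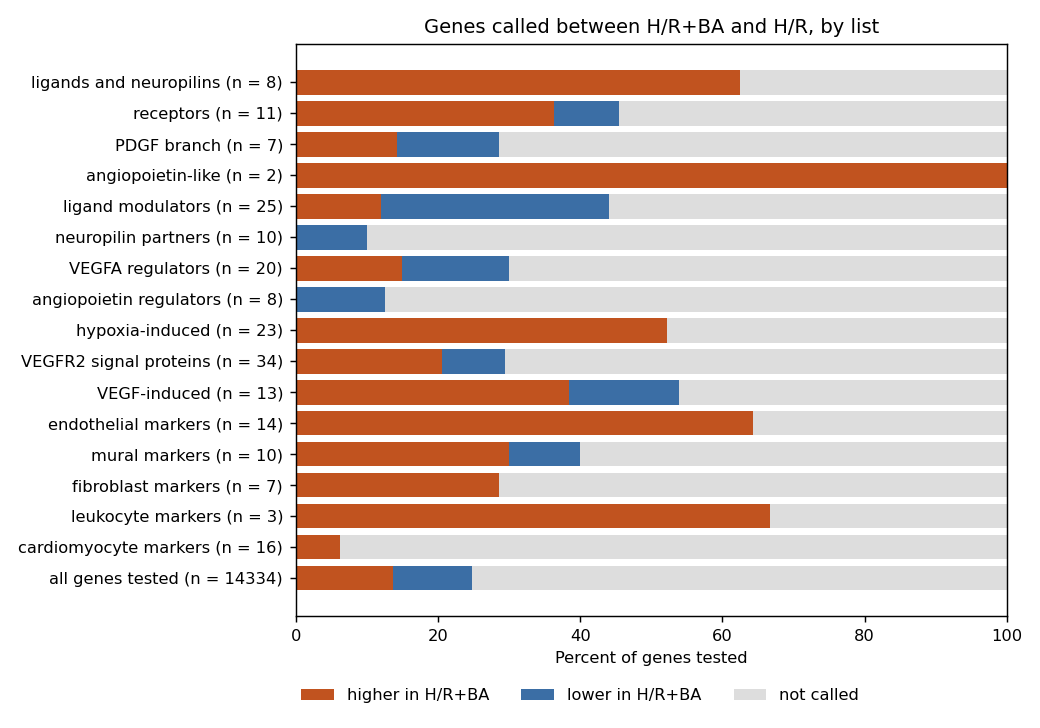
Percent of the tested genes of each list (x axis) that were called higher in H/R+BA (orange), called lower in H/R+BA (blue) or not called (grey), with the number tested in brackets. Of the ligands and neuropilins 5 of 8 were called higher, of the hypoxia-induced genes 12 of 23 and of the endothelial markers 9 of 14, and the bottom bar gives all 14334 genes tested. These counts include ANGPT1, TEK and PLVAP, which reached 1 FPKM in H/R+BA libraries alone, so their direction was built into their being tested. Some genes, such as TEK, stand in more than 1 list.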

How the data were processed

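RNA of 8 hiPS-CM libraries (4 H/R+BA, 4 H/R) was sequenced from stranded mRNA libraries. As the paper's methods and the labels state, the authors used Trimmomatic 0.39 for trimming, HISAT2 2.1.0 for mapping to GRCh38.p5, featureCounts 2.0.6 for counting and Cuffdiff 2.2.1 for testing. Which annotation was counted is not given in these sources. The deposited table holds, per library, the authors' normalized FPKM and a normalized count, a signal value that is not whole. The authors' own fold changes (a ratio between groups, signed), p-values and group means (6 columns) were not used, nor were 9 further libraries that the sequencing summary lists. The percent of reads mapped was deposited by the authors.

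Differences were tested in R 4.3.3 with limma 3.58.1 (moderated two-sided test, variance trended on the mean) on log2(FPKM + 1), for genes that reached 1 FPKM in no fewer than 4 of the 8 libraries, with Benjamini-Hochberg adjustment over the 14334 genes tested and a threshold of 0.05. No count-based interval was formed, since FPKM hold no whole counts, so counting error was not separated from the spread between libraries. The test was tried on simulated data. The genes and lists were chosen with earlier results of these data known. The genes named are all 9 ligand and neuropilin genes, every tested gene of the receptor list, up to 3 called genes of each other list with the smallest p, and for each called ligand the 3 most similar genes. Others, named after their values were seen, are those behind a count of 5 or fewer, those with an opposite or related role in a sentence, and overlapping genes. Some genes behind the counts are not reported here by name. Alternatives were a pseudocount of 0.1, no filter, a filter at 10 normalized counts, rescaling by median ratios, the normalized counts, the replicate number as a block, no variance trend and leaving out each library. Promoters were read from RefSeq (GRCh38.p14), gene overlaps from GENCODE by gene ID.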

Additional observations from a re-analysis of the deposited data

Results flagged for a closer look

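The lowest PGF level of the H/R group, 4.07 FPKM in library 3, lay apart from the other H/R libraries (5.93 to 6.18 FPKM), its gap taking 0.883 of the whole range of the group, above Dixon's 95% critical value for 4 samples. It was 1 of 18 groups checked over the 9 genes, and chance alone sets apart about 1 in 20 groups. H/R library 3 was also the library with the fewest reads, 39854257.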

How the results depend on the processing

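In all 15 alternatives PGF (log2 difference 1.196 to 1.47), ANGPT1 (1.27 to 2.39), ANGPT2 (0.64 to 1.10) and VEGFA (0.37 to 0.54) were called. VEGFB, NRP1 and NRP2 were called in none of them. The alternatives other than no filter and the filter at 10 normalized counts kept the FPKM filter, which ANGPT1 passed through H/R+BA libraries alone. In those fits the direction of ANGPT1 was built into its being tested. The number of ligand and neuropilin genes called was 4 or 5 throughout. Of the listed pathway genes 40 to 69 were called, 54 of 147 tested as reported (36.7%), beside 24.7% of all genes tested. The 69 came from the normalized counts, where calls over the whole table also rose, as given below. The 40 came without a filter and without H/R+BA library 2. In these fits 1648 and 1374 genes were higher and 1169 and 1117 lower over the whole table. The VEGFC call was lost without a filter (adjusted p = 0.0961) and with the replicate block (adjusted p = 0.0614). The difference of VEGFC was 0.30 to 0.41 when each library was left out. The labels do not say whether same-numbered libraries were paired. Their deviations from the group means correlated at 0.243, -0.235, -0.249 and -0.015, and those of differently numbered libraries at -0.402 to 0.313. These few correlations cannot settle whether the libraries were paired. With the replicate block, 4 of these genes were called, and 1460 genes were higher and 1071 lower over the whole table. On the normalized counts 2595 genes were lower, against 1588 on FPKM, while 2350 and 1958 were higher. The cause was not tested. ANGPT4 and FLT4 lay under the filter by their level, and no test of them is among the reported results beyond that of ANGPT4 without a filter.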
